A study of Ovis aries with 24 samples.

Results

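GNRHR (ENSOARG00000007526) encodes the receptor for gonadotropin-releasing hormone (GnRH). It was taken by its gene name from deposited tables of 27054 features, of which it is 1, and followed through 24 RNA-seq libraries of cultured ovine pituitary cells. The receptor sits on gonadotropes, the pituitary cells that make luteinizing hormone (LH) and follicle-stimulating hormone (FSH). GnRH released from the hypothalamus binds it, Gq proteins activate phospholipase C, and calcium, protein kinase C and MAP kinases then carry the signal to hormone release and gene transcription. In ewes, estradiol is known to raise the number of GnRH receptors on gonadotropes and their sensitivity to GnRH before the LH surge.

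All cells came from pituitaries of ovariectomized ewes of the Western white faced breed and were dispersed and kept on plastic. At 24 hours every culture received an adenovirus that directs green fluorescent protein to gonadotropes, and 3 days later it received 10 nM estradiol (E2) or its ethanol vehicle for 6 hours. The 4 groups of 6 libraries were sorted cells under E2, sorted cells under vehicle, unsorted anterior pituitary cells under E2 and unsorted cells under vehicle. The sources used here do not give the promoter of the virus, the age of the ewes or the number of ewes behind a library. No label says that replicates came from separate animals, so p-values measure the spread between these libraries.

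Total counts were 4185088 to 6189629 in the 12 libraries numbered 1 to 3 and 19216735 to 37042448 in the 12 numbered 4 to 6, so each group holds 3 shallow and 3 deep libraries. Of 8 gonadotrope genes tested, 6 were higher in sorted cells under each treatment (edgeR, adjusted p under 0.05). Of all genes tested 25.8% were higher under E2 and 24.4% under vehicle. The summed level of the 9 measured gonadotrope genes had a median of 4036 CPM (counts scaled to a common library size) in sorted E2 and 855 in unsorted E2 libraries, and 4123 in sorted vehicle and 847 in unsorted vehicle libraries. This sum rested mainly on the hormone subunit genes CGA and LHB, with means of 2796 and 1035 CPM in sorted vehicle libraries. Markers of other cells remained in the sort. PRL, the prolactin gene of lactotropes, averaged 121619 CPM in sorted vehicle and 67489 CPM in unsorted vehicle libraries, and 6 fibroblast markers summed to a median of 1093 and 6439 CPM in the same groups. Red blood cell markers were at or near 0 in all 4 groups, at no more than 0.416 CPM.

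GNRHR was a gene of few reads. Sorted E2 libraries 1 to 6 held 178, 36, 77, 280, 802 and 479 GNRHR counts, and sorted vehicle libraries held 60, 21, 28, 84, 115 and 127. Unsorted E2 libraries held 39, 13, 18, 125, 363 and 106 counts, and unsorted vehicle libraries held 5, 3, 4, 18, 36 and 17. Its level was thus best counted where cells were sorted and treated, and rested on 3 to 5 reads in the shallow unsorted vehicle libraries. The exact Poisson 95% interval of the library with 3 reads ran from 0.116 to 1.65 CPM, and that of the library with 802 reads from 37.5 to 43.1 CPM. These intervals cover counting error only.

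Scaled to CPM on TMM-adjusted library sizes, GNRHR stood highest in sorted E2 libraries, with a lowest value of 6.68, a median of 19.6 and a highest of 40.2 CPM. Sorted vehicle libraries had a lowest value of 3.59, a median of 5.07 and a highest of 9.93 CPM. Unsorted E2 libraries had 2.23, 3.27 and 11.6 CPM in the same order, and unsorted vehicle libraries had 0.452, 0.639 and 1.04 CPM. The unsorted vehicle libraries were below all others, with no overlap with any group. The other 3 groups overlapped one another. All sorted vehicle libraries lay within the range of unsorted E2 libraries. Sorted E2 replicate 2 fell within the range of sorted vehicle libraries, and unsorted E2 replicates 1 and 5 lay above sorted E2 replicate 2.

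**Figure D1:**
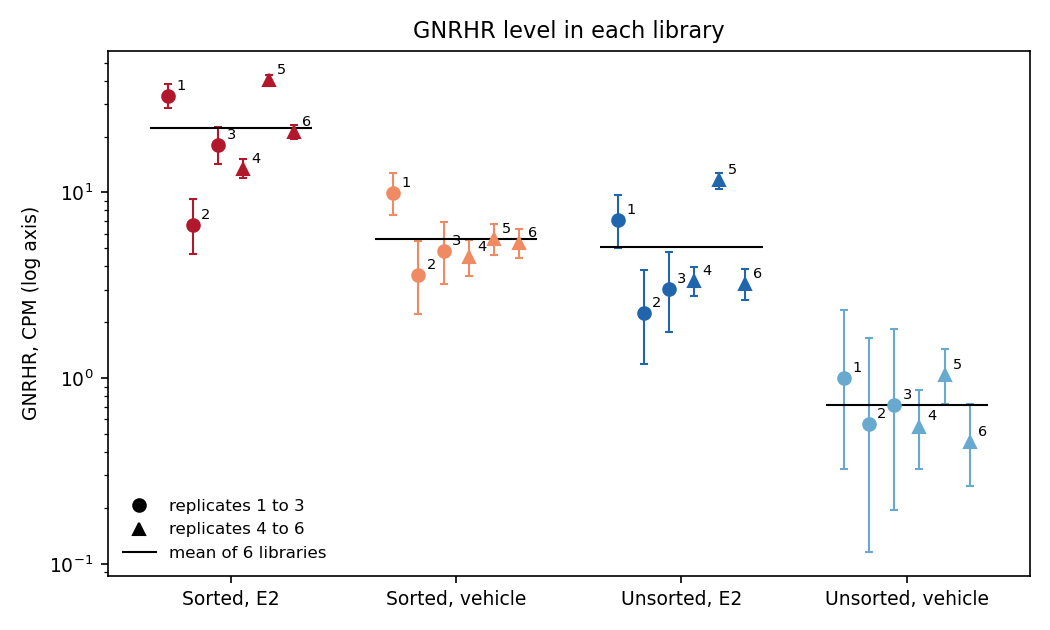
GNRHR level in CPM on a log axis for each of the 24 libraries, in 4 groups of 6, with exact Poisson 95% intervals as bars, replicate numbers beside the points and the group mean as a line. The unsorted vehicle libraries lie between 0.452 and 1.04 CPM, below every other library, and the sorted E2 libraries reach 40.2 CPM.

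The group means were 22.1 ± 12.5 CPM in sorted E2, 5.63 ± 2.23 in sorted vehicle, 5.07 ± 3.61 in unsorted E2 and 0.719 ± 0.247 in unsorted vehicle libraries (SD, n = 6 each). The order of the means was tested on log2 CPM for all 6 pairs of groups by 2-sided exact permutation tests with Benjamini-Hochberg adjustment over the 6, and some of these pairs share a group. Of the neighbours in this order, sorted E2 exceeded sorted vehicle by 1.82 (adjusted exact p = 0.00649), and unsorted E2 exceeded unsorted vehicle by 2.58 (adjusted exact p = 0.00433). Sorted vehicle and unsorted E2 did not differ beyond their spread, at a difference of 0.33 (adjusted exact p = 0.439), with the sorted library higher in 5 of 6 same-numbered pairs. Sorted cells without E2 and unsorted cells with E2 thus held GNRHR at levels that these libraries did not separate.

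The spread of GNRHR within a group was mostly larger than counting error. Observed coefficients of variation were 46.4 to 79.5% in 6 of the 8 sets of 3 libraries that share a group and a depth, against 4.8 to 23.0% expected from counting. The exceptions were the deep sorted vehicle libraries, at 11.6% against 9.74%, and the shallow unsorted vehicle libraries, at 28.9% against 51.1%, where counting alone gives more spread than was seen. In the fit of E2 against vehicle in sorted cells, GNRHR had a biological coefficient of variation of 0.439, against a median of 0.213 over all genes tested, and 90.8% of genes had a lower dispersion.

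Much of that spread followed the replicate number. Replicate 5 was the highest library in sorted E2, unsorted E2 and unsorted vehicle cells, and replicate 2 was the lowest in sorted E2, sorted vehicle and unsorted E2 cells. In a fit with the replicate number as a block the coefficient of variation of GNRHR in sorted cells was 0.184, against 0.439 without it. Same-numbered libraries deviated together across genes in every comparison (correlations of 0.301 to 0.883), so values with this block are given beside those without.

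GNRHR rose with E2 in sorted cells. Per same-numbered pair, the E2 library exceeded the vehicle library in 6 of 6, with a lowest fold of 1.86 in replicate 2, a median of 3.51 and a highest of 7.13 in replicate 5. The fitted log2 fold change was 1.98 ± 0.38 (SE; adjusted p = 0.018, edgeR quasi-likelihood test), a fold of 3.95. With the replicate block it was 2.02 ± 0.18 (adjusted p = 1.6e-05, edgeR), and with the block it was 1.63 in replicates 1 to 3 and 2.18 in replicates 4 to 6.

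In that fit 196 of 14334 genes passed at an adjusted p under 0.05, or 1.37%, of which 159 were higher, and GNRHR ranked 17 by size among those. With the block 1896 genes passed, or 13.2%. Leaving out 1 library at a time gave 1.73 to 2.20 for GNRHR, and 3 of these 12 fits without the block, those lacking vehicle replicate 2, 3 or 6, did not pass (adjusted p = 0.053, 0.054 and 0.052, edgeR), while with the block it held without any 1 replicate number (adjusted p up to 0.00049, edgeR). In the authors' deposited table the log2 fold change was 1.99 with a false discovery rate of 1.9e-05, rank 55 by p-value among 16569 rows, of which 211 passed 0.05.

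GNRHR also rose with E2 in unsorted cells. The E2 library exceeded the vehicle library in 6 of 6 same-numbered pairs, with a lowest fold of 3.80 in replicate 2, a median of 6.26 and a highest of 10.8 in replicate 5. Replicates 2 and 5 thus gave the smallest and the largest fold in both preparations. The fitted log2 fold change was 2.86 ± 0.44 (adjusted p = 0.016, edgeR), a fold of 7.28, and 2.95 ± 0.18 with the replicate block (adjusted p = 2.1e-09, edgeR). Within the sets, with the block, it was 2.37 in replicates 1 to 3 and 3.07 in replicates 4 to 6.

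Here 37 of 15083 genes passed, or 0.245%, of which 32 were higher, and GNRHR ranked 5 by size among those. With the block 790 genes passed, or 5.24%. Leaving out 1 library at a time gave 2.39 to 3.11 for GNRHR. The fits without the block that lacked vehicle replicate 4 or 6 did not pass (adjusted p at most 0.066, edgeR), and with the block it held without any 1 replicate number (adjusted p up to 1e-07, edgeR). In the authors' deposited table the log2 fold change was 2.83 with a false discovery rate of 4.9e-07, rank 9 by p-value, with 77 rows past 0.05.

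In bulk libraries, more gonadotropes and more GNRHR RNA per gonadotrope cannot be told apart. Other gonadotrope genes of the same libraries were read beside GNRHR. CGA, the alpha subunit of LH, FSH and thyrotropin, averaged 2667 ± 607 CPM in sorted E2 and 2796 ± 757 CPM in sorted vehicle libraries, and its log2 fold change was -0.07 ± 0.19 (adjusted p = 1.0, edgeR). LHB, the LH beta subunit, had 0.00 ± 0.40 and NR5A1, a gonadotrope transcription factor that binds the GNRHR promoter in mice, had -0.03 ± 0.29 in sorted cells. In unsorted cells the same genes had 0.11 ± 0.34, 0.10 ± 0.56 and 0.04 ± 0.43. None of these values passed the test, with or without the block (edgeR; none at an unadjusted p under 0.05 or by DESeq2). Of 6 fibroblast, 4 endothelial and 4 folliculostellate or stem cell markers none passed with E2 in sorted cells by edgeR without the block or by DESeq2, or at an unadjusted p under 0.05. With the block ALDH1A1, of the folliculostellate or stem cell list, fell by 0.15 ± 0.03 (adjusted p = 0.0037, edgeR). Of the thyrotrope markers, DIO2, a deiodinase gene, rose in sorted cells with the block by 0.40 ± 0.06 and TSHB fell by 0.30 ± 0.05 (adjusted p = 6.8e-05 and 0.00012, edgeR), and neither passed without it. In unsorted cells DIO2 had 0.99 ± 0.24, called by DESeq2 and with the block (adjusted p = 0.00014, edgeR) and not by edgeR without it (adjusted p = 0.162). The part of these markers in the E2 result of GNRHR was not tested.

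FSHB, the FSH beta subunit, went the other way from GNRHR. It averaged 83.1 ± 37.4 CPM in sorted E2 and 148 ± 66.7 CPM in sorted vehicle libraries, and its log2 fold change of -0.83 ± 0.35 passed the test with the block (adjusted p = 7.1e-08, edgeR) and not without it (adjusted p = 0.598, edgeR). In unsorted cells FSHB had -0.81, which passed with the block (adjusted p = 1.5e-08, edgeR) and not without it. ESR1, the gene of estrogen receptor alpha, had -0.42 ± 0.10 in sorted cells, with 37.7 ± 3.55 CPM under E2 and 50.5 ± 7.75 CPM under vehicle, and -0.64 ± 0.16 in unsorted cells. Both ESR1 values passed with the block (adjusted p = 3.7e-05 and 1.8e-06, edgeR) and not without it (adjusted p = 0.069 and 0.173, edgeR).

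**Figure D2:**
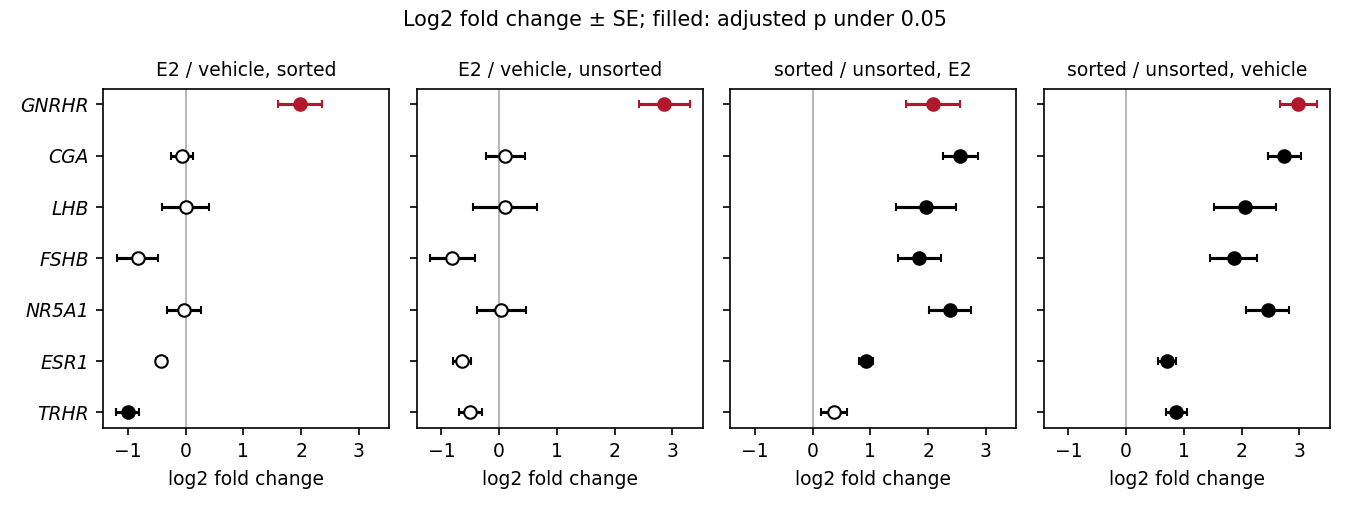
Fitted log2 fold changes with standard errors for GNRHR (red), 4 other gonadotrope genes, ESR1 and TRHR in 4 comparisons, with filled points for an adjusted p under 0.05 without the replicate block. GNRHR is the only one of these genes higher with E2 at that threshold, at 1.98 and 2.86, and all 5 gonadotrope genes are higher in sorted cells.

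The sort raised GNRHR under both treatments. Under E2, the sorted library exceeded the unsorted one in 6 of 6 same-numbered pairs, by a lowest fold of 2.97, a median of 4.32 and a highest of 6.56. The log2 fold change was 2.09 ± 0.47 (adjusted p = 0.0021, edgeR), and 2.20 and 2.11 in replicates 1 to 3 and 4 to 6 with the block. In this comparison 51.8% of the genes tested passed, and GNRHR ranked 101 by size among 3749 higher genes.

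Under vehicle, the sorted library exceeded the unsorted one in 6 of 6 pairs, by a lowest fold of 5.27, a median of 7.13 and a highest of 11.1. The log2 fold change was 2.98 ± 0.32 (adjusted p = 4.4e-06, edgeR), with 2.95 and 2.93 in the 2 sets, and GNRHR ranked 12 by size among 3529 higher genes, in a comparison in which 50.2% of the genes tested passed. The authors' deposited table, which runs from sorted to unsorted, gives -2.97 for the same groups. Both comparisons of sorted with unsorted cells passed in all 12 fits that left out 1 library.

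Most gonadotrope genes rose beside it. Under vehicle the log2 fold changes were 2.74 ± 0.28 for CGA, 2.45 ± 0.37 for NR5A1, 2.06 ± 0.53 for LHB and 1.86 ± 0.40 for FSHB (adjusted p = 3.8e-06 to 0.0070, edgeR). ESR1 rose by 0.71 ± 0.15 (adjusted p = 0.0011, edgeR). PITX1 and ISL1, of the same list of gonadotrope genes, did not pass, at -0.32 ± 0.22 and 0.34 ± 0.27. PITX1 was lower in sorted cells under E2 with the block (-0.49 ± 0.09, adjusted p = 0.00076, edgeR) and did not pass without it. Under E2 the value for GNRHR, 2.09, lay below those of CGA, 2.56, and NR5A1, 2.38, and above those of LHB, 1.96, and FSHB, 1.85, an order that was not tested. Genes of other cells moved with the sort as well: of 6 fibroblast markers 4 fell and 1 rose under vehicle, with a median of -2.63, and of 4 endothelial markers 3 fell, with a median of -1.26. Of 4 folliculostellate or stem cell markers ALDH1A1 and S100B rose and SOX2 and SOX9 fell. Several markers of other hormone-producing cells were higher in sorted cells, as most gonadotrope genes were. Under vehicle PRL rose by 0.85 ± 0.24, TSHB, the thyrotropin beta subunit, by 1.33 ± 0.42, POMC, the corticotropin precursor, by 0.90 ± 0.30 and GHRHR by 0.45 ± 0.17 (adjusted p = 0.0093, 0.018, 0.025 and 0.038, edgeR). The call of GHRHR was lost in 7 of 12 fits that left out 1 library and that of POMC in 4. GH, TBX19 and DIO2 passed by edgeR with the block only. Under E2 PRL, GHRHR and TBX19 passed without the block, and TSHB and POMC did not (adjusted p = 0.086 and 0.07, edgeR). These calls of PRL, GHRHR and TBX19 were lost in 10, 9 and 5 of 12 such fits. The higher levels in sorted cells were thus not confined to gonadotrope genes. The part of these markers in the GNRHR result was not tested.

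A ratio of GNRHR to CGA counts within a library uses no library scaling and sets GNRHR against another gonadotrope gene. Per 1000 CGA counts there were a lowest of 3.45, a median of 8.56 and a highest of 14.0 GNRHR counts in sorted E2 libraries, and 1.22, 2.01 and 3.22 in sorted vehicle libraries. Unsorted E2 libraries had 5.68, 10.5 and 19.3, and unsorted vehicle libraries had 1.20, 1.64 and 4.08. All E2 libraries lay above all vehicle libraries of the same preparation, which the CPM values did not show in sorted cells. The means were 8.16 ± 4.01 in sorted E2 and 2.06 ± 0.691 in sorted vehicle libraries, and 11.5 ± 5.27 in unsorted E2 and 1.95 ± 1.06 in unsorted vehicle libraries (SD, n = 6 each).

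**Figure D3:**
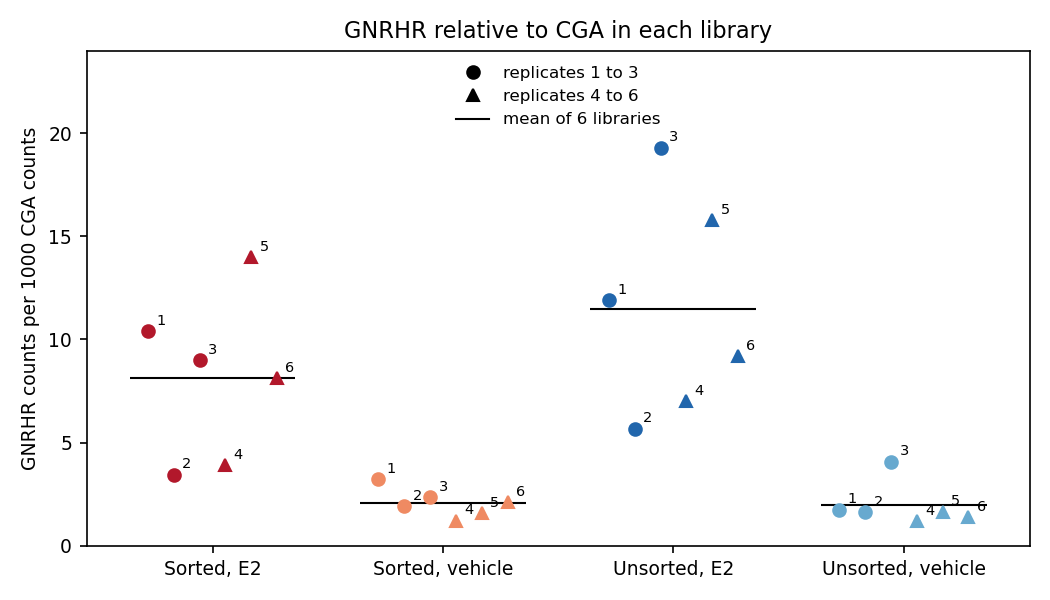
GNRHR counts per 1000 CGA counts in each of the 24 libraries, with replicate numbers beside the points and the group mean as a line. The E2 libraries, at 3.45 to 19.3, lie above the vehicle libraries of the same preparation, while sorted and unsorted vehicle libraries share the range of 1.20 to 4.08.

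The ratio was 3.66-fold higher with E2 in sorted cells (log2 difference 1.87) and 5.54-fold higher with E2 in unsorted cells (2.47), both with an adjusted exact permutation p of 0.00433 over 4 comparisons. Under vehicle, the ratio differed between sorted and unsorted cells by 0.05 on the log2 scale (adjusted exact p = 0.877), and same-numbered pairs ranged from -0.95 to 0.75, with 3 of 6 higher in the sorted library. Under E2 the ratio was lower in sorted than in unsorted cells in 6 of 6 pairs, by a mean of -0.55. That difference did not pass the exact permutation test (adjusted p = 0.312) and passed the exact sign-flip test over the 6 pairs (p = 0.0312, the smallest it can give; adjusted p = 0.0391 over 5).

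Other denominators gave like values for E2. Per NR5A1 count the log2 differences with E2 were 1.84 in sorted and 2.50 in unsorted cells (adjusted exact p = 0.013 and 0.00866), and per LHB count they were 1.79 and 2.48 (adjusted exact p = 0.0433 and 0.0173). The sorted over unsorted difference under vehicle was 0.24 per NR5A1 count and 0.61 per LHB count, and neither passed (adjusted exact p = 0.600 and 0.482).

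Whether the E2 response of GNRHR differed between preparations depended on the scale. In same-numbered libraries the log2 response was smaller in sorted than in unsorted cells in 6 of 6 pairs, with differences of -1.05, -1.03, -0.14, -0.97, -0.61 and -0.76 for replicates 1 to 6. Replicate 3, whose unsorted libraries held 18 and 4 reads, differed least. Replicates 1 and 2 differed most, and their unsorted libraries held 39 and 5 reads and 13 and 3 reads. The mean was -0.76 ± 0.35 (SD, n = 6; exact sign-flip p = 0.0312, the smallest possible). In the edgeR fit over all 24 libraries the difference was -0.88 ± 0.59 and did not pass (adjusted p = 1.0, edgeR). With the block it was -0.97 ± 0.32 (adjusted p = 0.375, edgeR). In that fit 4 genes passed, or 0.0264%, and with the block 70, or 0.463%, and GNRHR was in neither set.

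In CPM the order was the opposite. The E2 library exceeded its vehicle library by 3.09 to 34.6 CPM in sorted cells (mean 16.5 ± 11.1) and by 1.66 to 10.5 CPM in unsorted cells (mean 4.35 ± 3.39). The gain was larger in sorted cells in 6 of 6 pairs, by 12.1 ± 8.0 CPM (SD, n = 6; exact sign-flip p = 0.0312). Sorted cells started higher under vehicle, by folds of 5.27 to 11.1. From that start even a smaller fold gives a larger gain in CPM, so this p-value does not measure the response apart from the starting level.

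**Figure D4:**
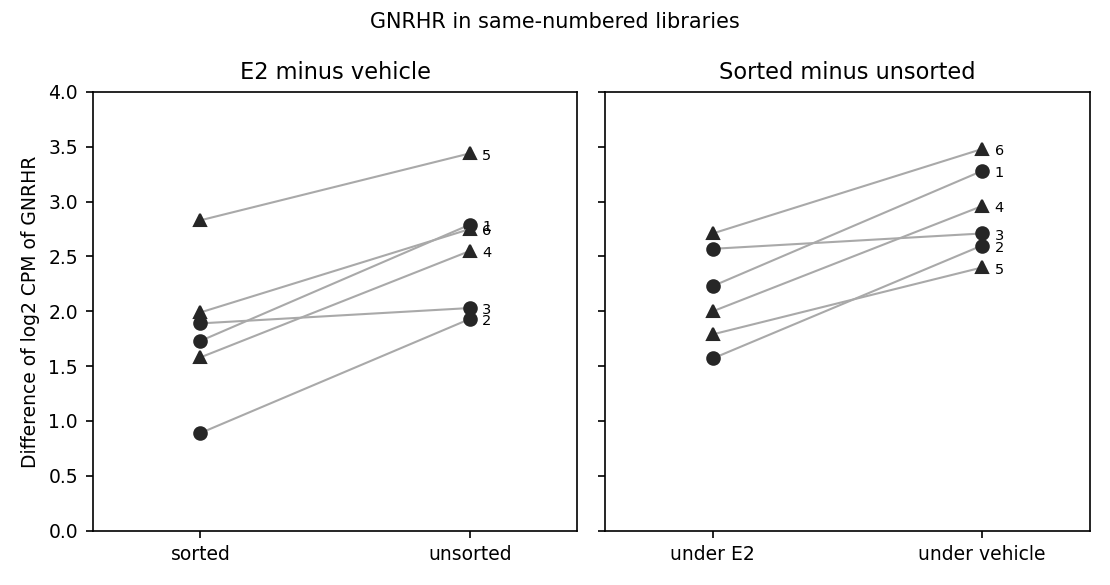
Differences of log2 CPM of GNRHR between same-numbered libraries (circles, replicates 1 to 3; triangles, replicates 4 to 6; numbers at the right), with a line for each replicate number. The left panel shows E2 minus vehicle in sorted and unsorted cells and the right panel sorted minus unsorted under E2 and vehicle. All 6 lines rise to the right in both panels, which show the same difference of responses in 2 ways.

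The other genes of GnRH signalling were read from lists by role, with 76 genes apart from GNRHR, of which 72 had a feature. With E2 in sorted cells 69 were tested, 1 rose and 2 fell, where 1.11% of all genes tested rose and 0.258% fell, and their median log2 fold change was -0.04 against 0.00 for all genes. At an unadjusted p under 0.05 there were 4 higher and 8 lower genes (edgeR), where 1024 of all 14334 genes had such a p. DESeq2 called 3 higher and 4 lower, where it called 300 and 101 of all 14334 genes. With the replicate block 5 rose and 11 fell, where 7.03% and 6.2% of all genes did. In unsorted cells 70 were tested, 1 rose and 0 fell, where 0.212% of all genes rose and 0.0331% fell, with a median of -0.02 against -0.01 for all genes. At an unadjusted p under 0.05 there were 3 higher and 2 lower genes (edgeR), where 425 of all 15083 genes had such a p. DESeq2 called 1 higher, ADCY5, and 1 lower, PRKCB, a protein kinase C gene, where it called 101 and 23 of all genes. With the block 5 rose and 3 fell, where 2.86% and 2.37% of all genes did. GNRHR was the only tested receptor of GnRH itself. The ligand gene GNRH1 had too few counts to be tested, and KISS1R, the kisspeptin receptor gene, stood at 1.40 ± 0.494 CPM in sorted E2 and 1.37 ± 0.394 CPM in sorted vehicle libraries.

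Few genes that act close to the receptor passed. Of 10 G protein genes none passed in either preparation by edgeR without the block or by DESeq2, or at an unadjusted p under 0.05. With the block GNAI1 fell in sorted cells. GNAQ, the alpha subunit of Gq that couples to the receptor, had -0.16 ± 0.15 in sorted and -0.09 ± 0.12 in unsorted cells. Of 12 tested genes of phospholipase C, protein kinase C and their partners, DGKZ, a kinase that removes diacylglycerol, rose in sorted cells by 0.76 ± 0.16 (adjusted p = 0.026, edgeR), with 133 ± 31.0 CPM under E2 and 78.7 ± 16.4 CPM under vehicle. The call was absent in fits lacking E2 replicate 4, 5 or 6 or vehicle replicate 1, 2, 3 or 4 (adjusted p at most 0.085), and held with the block (adjusted p = 9.2e-10, edgeR). In unsorted cells DGKZ had 0.28 ± 0.14, which passed with the block only (adjusted p = 0.00065, edgeR). With the block PRKCB fell in both preparations and PLCB4, a phospholipase C gene, fell in unsorted cells.

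Of 11 MAP kinase genes none passed by edgeR without the block, while MAPK8 did in sorted cells by DESeq2 and was the 1 gene at an unadjusted p under 0.05. MAPK8, which encodes the kinase JNK1, had 0.45 ± 0.10 in sorted cells (adjusted p = 0.053, edgeR) and rose with the block (adjusted p = 1.9e-05, edgeR). Among 9 genes of cyclic AMP signalling, ADCY5, an adenylyl cyclase, rose in unsorted cells by 1.49 ± 0.21 (adjusted p = 0.0065, edgeR), with 16.4 ± 3.87 CPM under E2 and 6.01 ± 1.78 CPM under vehicle. In sorted cells it had 1.06 ± 0.30, which passed with the block (adjusted p = 0.00087, edgeR) and not without it (adjusted p = 0.141, edgeR). Of 10 calcium and calmodulin genes none passed by edgeR without the block or by DESeq2, with 1 at an unadjusted p under 0.05 in sorted cells. With the block CAMK2D and CAMK2G fell in sorted cells. PRKAR2B, of the cyclic AMP list, fell in both preparations with the block.

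Early targets and inhibitors of signalling held the genes that fell in sorted cells by edgeR without the block. Of 8 genes that GnRH is known to induce early, JUN, an AP-1 subunit, fell by 0.66 ± 0.13 (adjusted p = 0.026, edgeR). It had 82.6 ± 13.0 CPM in sorted E2 and 131 ± 22.7 CPM in sorted vehicle libraries. It did not pass in fits lacking E2 replicate 1, 3, 5 or 6 or vehicle replicate 2, 3, 4 or 6 (adjusted p at most 0.075), and held with the block (adjusted p = 5.4e-05, edgeR). With the block ATF3, DUSP1, EGR1 and FOS fell as well and NR4A3 rose, 5 and 1 of 8 where 6.2% and 7.03% of all genes did. DESeq2 called DUSP1, FOS and JUN lower in sorted cells, where it called 101 of 14334 genes lower. At an unadjusted p under 0.05 there were 5 lower and 0 higher (edgeR), where 1024 of 14334 genes had such a p. In unsorted cells none passed by edgeR without the block or by DESeq2. With the block FOS and NR4A3 rose there, where 2.86% of all genes did.

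RGS2, which switches off Gq, stood in the list of genes that limit receptor signalling. It fell by 0.88 ± 0.10 in sorted cells (adjusted p = 0.00043, edgeR), with 56.0 ± 6.28 CPM under E2 and 103 ± 10.9 CPM under vehicle, and this held in all 12 fits that left out 1 library. In unsorted cells RGS2 had -0.15 ± 0.13 and did not pass. The difference of its E2 response between preparations was -0.73 ± 0.16, which passed with the block (adjusted p = 0.0021, edgeR) and not without it (adjusted p = 0.245, edgeR). ARRB2, an arrestin gene of the same list, had 0.50 ± 0.15 in sorted cells and passed with the block only (adjusted p = 4.1e-05, edgeR).

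**Figure D5:**
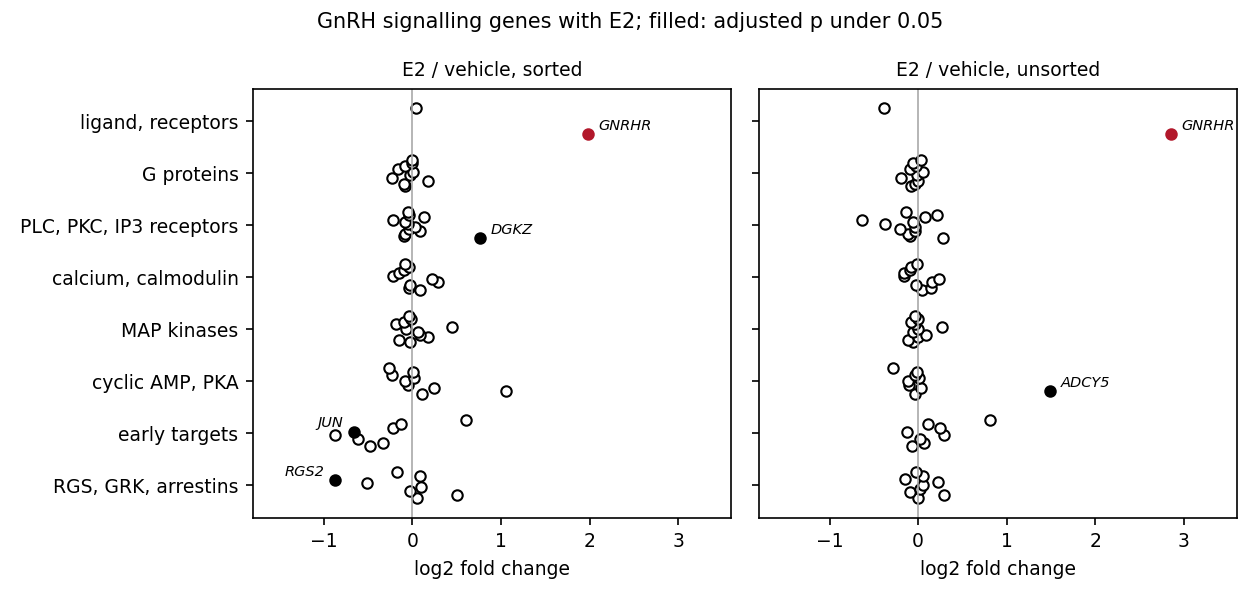
Fitted log2 fold changes with E2 in sorted and unsorted cells for GNRHR (red) and the tested genes of GnRH signalling, in rows by role, with filled points for an adjusted p under 0.05 without the replicate block. GNRHR lies at 1.98 and 2.86, DGKZ, JUN and RGS2 are the other filled points in sorted cells, and ADCY5 is the other filled point in unsorted cells.

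The pathway was also compared between sorted and unsorted cells. Under E2 22 of 69 rose and 16 fell, where 25.8% and 26% of all genes did, and under vehicle 25 of 70 rose and 17 fell, where 24.4% and 25.8% did, and nothing particular to the pathway is read from these counts. The 8 early targets rose together under vehicle, with a median of 1.27, among them EGR1 by 4.23 ± 0.27 and FOS by 4.12 ± 0.22, and 5 of the 8 rose under E2. Of the MAP kinase genes 6 fell and 1 rose under vehicle. GNAQ fell by 0.44 ± 0.12 in sorted cells (adjusted p = 0.0091, edgeR), while PLCB4, a phospholipase C gene, rose by 1.06 ± 0.11 (adjusted p = 3.3e-06, edgeR). EGR1, FOS, GNAQ and PLCB4 were picked from the sort results after their values were seen.

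A list of 22 factors known to act at the GNRHR promoter in mice or other mammals held 17 tested in sorted cells. With E2 JUN fell by edgeR without the block, where 0.258% of all genes did. FOS and JUN fell by DESeq2, which called 300 of 14334 genes higher and 101 lower. Neither tool called a factor higher. At an unadjusted p under 0.05 there were 1 higher and 3 lower (edgeR), where 1024 of 14334 genes had such a p. With the block LHX3 and SMAD3 rose and FOS, ISL1, JUN, JUNB and MSX1 fell, 2 and 5 of 17 where 7.03% and 6.2% of all genes did. In unsorted cells none of 18 passed by edgeR without the block or by DESeq2, or at an unadjusted p under 0.05. With the block FOS rose there and LHX3 fell, 1 and 1 of 18 where 2.86% and 2.37% of all genes did. LHX3, a pituitary homeodomain factor, thus moved in opposite directions with the block, by 0.36 ± 0.08 in sorted and -0.49 ± 0.08 in unsorted cells (adjusted p = 0.0035 and 0.00056, edgeR). FOS did so as well, with -0.90 ± 0.17 in sorted and 0.29 ± 0.07 in unsorted cells (adjusted p = 0.025 and 0.012, edgeR). The difference between preparations passed with the block for both (adjusted p = 0.013 and 0.043, edgeR), for neither by edgeR without it, and for FOS by DESeq2. ESR2, the gene of estrogen receptor beta, had -0.43 ± 0.24 in sorted cells and did not pass with or without the block.

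Among 16 genes of receptors through which hormones and dopamine act on the pituitary, 10 were tested in sorted cells. With E2 GNRHR rose and TRHR fell there by edgeR without the block, where 1.11% of all genes tested rose and 0.258% fell. TRHR, the receptor gene for thyrotropin-releasing hormone, had a lowest of 11.0, a median of 15.7 and a highest of 23.5 CPM in sorted E2 libraries, and 21.9, 32.0 and 43.3 CPM in sorted vehicle libraries, so the groups overlapped narrowly. Its log2 fold change was -1.0 ± 0.2 (adjusted p = 0.023, edgeR), a call absent in fits lacking E2 replicate 4 or 6 or vehicle replicate 2, 3 or 5 (adjusted p at most 0.067) and kept with the block (adjusted p = 1.2e-08, edgeR). In unsorted cells TRHR had -0.50 ± 0.20, which passed with the block only (adjusted p = 0.0003, edgeR). With the block the somatostatin receptor genes SSTR2 and SSTR5 and GHRHR, the receptor gene for growth hormone-releasing hormone, rose in both preparations. Their unblocked values in sorted cells were 1.48 ± 0.43, 1.05 ± 0.32 and 0.18 ± 0.15. With the block the receptor gene GHSR also fell in sorted cells, and the dopamine receptor gene DRD2 rose in unsorted cells. Counting GNRHR and TRHR, 4 of 10 rose and 2 fell with the block in sorted cells, where 7.03% and 6.2% of all genes did. In unsorted cells 5 of 11 rose and 1 fell with the block, where 2.86% and 2.37% of all genes did.

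The genes whose pattern was most like that of GNRHR were found by Pearson correlation of log2 CPM over the 24 libraries, among 11228 named genes whose mean reached 1 CPM and whose median r was 0.065. The points share libraries, depth and 4 groups, so these values are descriptions. The 10 highest had r of 0.900 to 0.918 and included IGDCC4, DGKG, ADRA2A, SCN10A, C14orf37, B4GALNT3, STK36, HHIP and SYNRG. For comparison CGA had 0.724, NR5A1 0.704, LHB 0.622, FSHB 0.396, ESR1 0.294 and TRHR 0.052. CGA, NR5A1 and LHB differed between sorted and unsorted cells, as given above, and passed no test of E2.

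All 10 genes had higher means under E2 than under vehicle in both preparations and higher means in sorted than in unsorted cells, an order that their selection favours. DGKG, a diacylglycerol kinase gene, averaged 23.0 ± 4.66 CPM in sorted E2, 10.6 ± 2.68 in sorted vehicle, 9.04 ± 1.82 in unsorted E2 and 4.98 ± 1.34 in unsorted vehicle libraries. ADRA2A, an adrenergic receptor gene, averaged 14.3 ± 4.90, 6.09 ± 1.59, 3.10 ± 0.731 and 1.31 ± 0.726 CPM in the same groups. STK36, a kinase gene, was higher with E2 in sorted cells by 1.01 ± 0.15 (adjusted p = 0.0035, edgeR), and B4GALNT3, a glycosyltransferase gene, had 1.51 ± 0.34 (adjusted p = 0.051, edgeR).

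Within groups, the genes that followed GNRHR from library to library were others. With each group centred at its mean, the highest r were 0.804 for NDRG3 and SPON1, 0.782 for SYNJ2 and PREX1 and 0.781 for GCG, over a median of 0.03. GCG averaged 1.53 CPM in sorted E2, 1.67 in sorted vehicle, 0.754 in unsorted E2 and 0.62 in unsorted vehicle libraries. That is close to the 1 CPM required for entry, so its r rests on few reads. NDRG3 averaged 47.7 CPM in sorted E2 and 47.2 CPM in sorted vehicle libraries and passed in none of the 4 comparisons of groups. PREX1, an exchange factor for Rac, averaged 127 CPM in sorted E2, 58.3 in sorted vehicle, 78.2 in unsorted E2 and 34.8 in unsorted vehicle libraries, and ranked 16 by r over all 24 libraries, while the other 4 ranked 390 or lower.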

How the data were processed

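RNA-seq counts of 24 libraries were analysed. The authors deposited whole-number counts per gene, made with featureCounts 1.5.1 per the submitters' processing notes. The sources used here name no aligner, build or strand setting, so overlapping genes on opposite strands cannot be told apart, and no coordinates or sequences are given. The deposited log2 fold changes, p-values and fold changes are the authors' edgeR results by the headers of 3 tables, and only their GNRHR values are used. The 12 vehicle libraries stand in 2 tables each, with 0 values differing.

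The counts went into edgeR 4.0.16 (R 4.3.3; TMM, filterByExpr, glmQLFit with robust estimation, 2-sided quasi-likelihood F-test, Benjamini-Hochberg adjustment over all genes tested, threshold 0.05), each comparison on its own groups and the difference of E2 effects on all 24 libraries. Standard errors are the log2 fold change over the square root of F. The edgeR steps without the block were tested on counts simulated at the same dispersion for all genes, with changes in well-counted genes only. That test does not cover the block or a gene as variable and as low in counts as GNRHR. Single-gene tests used exact permutations of log2 CPM with a prior count of 0.5 (6 against 6, smallest p 0.00216) or exact sign flips over 6 same-numbered libraries (smallest p 0.0312). Ratios used counts plus 0.5, and likeness a prior count of 2. Means of ratios are of raw ratios.

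No label says what a replicate number shares. In counts centred by group, same-numbered libraries correlated at 0.301 to 0.883, each above 0.1, so they were taken as pairs. GNRHR, the gene lists and the tests were chosen with earlier results of these data known. Genes were named by a rule: GNRHR, CGA, LHB, FSHB, NR5A1, ESR1 and TRHR, the 10 and 5 genes most like GNRHR, up to 3 members of each role list with the smallest p for E2 in sorted cells, and receptors and promoter factors past that test. Lists of the block calls and members named from the sort go beyond it and were chosen after their values were seen. Of the 10 genes most like GNRHR 1 is not reported here. Of the listed symbols 13 had no feature and are not analysed here. Alternatives were other scaling, no low-count filter, DESeq2 1.42.0, the block, each depth set alone, other denominators and pseudocounts, and leaving out each library.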

Additional observations from a re-analysis of the deposited data

Results flagged for a closer look

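In sorted vehicle libraries the highest GNRHR level, 9.93 CPM in replicate 1 from 60 reads, stood apart from the other 5 libraries, which had 3.59 to 5.61 CPM, by Dixon's criterion. In unsorted vehicle libraries the highest ratio, 4.08 GNRHR counts per 1000 CGA counts in replicate 3, stood apart from the other 5, at 1.20 to 1.75, and rested on 4 GNRHR reads. Chance flags about 1 in 20 groups by this criterion, and no cause was tested for either library.

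The log2 response of GNRHR to E2 was smaller in sorted than in unsorted cells by a mean of -0.76 over 6 same-numbered pairs (exact sign-flip p = 0.0312), and the edgeR test of the same difference did not pass. The ratio of GNRHR to CGA counts differed likewise, by -0.60 on the log2 scale (exact sign-flip p = 0.0312).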

How the results depend on the processing

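For GNRHR itself, both E2 comparisons and both comparisons of sorted with unsorted cells kept their direction and their call under RLE size factors, library totals, no filter on low counts, DESeq2, the replicate block, 1 fit of all 24 libraries and each depth set alone. The replicate block left the difference of the E2 effects on GNRHR without a call, and its effect on E2 calls of other genes is given in the report by name or count. Leaving out 1 library gave 1.73 to 2.20 for E2 in sorted cells, 2.39 to 3.11 in unsorted cells, 1.82 to 2.56 and 2.74 to 3.20 for sorted against unsorted cells under E2 and under vehicle, and -1.16 to -0.40 for the difference of the E2 effects, with the lost calls named in the report. The 3 to 5 reads of the shallow unsorted vehicle libraries limit every fold against that group.

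The numbers of genes called for E2 moved with the fit. DESeq2 called 401 genes in sorted cells, 124 in unsorted cells and 22 for the difference of the effects. The replicate block gave 1896, 790 and 70, replicates 1 to 3 alone with the block 563, 67 and 2, and replicates 4 to 6 alone with the block 1277, 730 and 47. The fit of all 24 libraries gave 73 in unsorted cells, and no filter on low counts gave 0 for the difference of the effects (edgeR; 441 at an unadjusted p under 0.05). Leaving out 1 library gave 125 to 208 genes in sorted cells, with 130 and 125 without vehicle replicates 2 and 3. In unsorted cells it gave 11 to 48, with 21, 18, 11 and 17 without E2 replicates 1, 4, 5 and 6 and 13, 20 and 14 without vehicle replicates 4, 5 and 6. For the difference it gave 4, 4 and 3 without sorted E2 replicate 2, sorted vehicle replicate 1 and unsorted E2 replicate 4, and 0 or 1 without any other library (edgeR; 191 to 277 at an unadjusted p under 0.05). The replicate block without 1 replicate number, added after seeing the data, gave, for replicates 1 to 6 in turn, 1726, 1648, 1782, 1893, 1387 and 1361 in sorted cells, 764, 822, 652, 474, 642 and 451 in unsorted cells, and 58, 45, 31, 22, 23 and 26 for the difference.

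The ratio of GNRHR to CGA for sorted against unsorted vehicle libraries, 0.05, turned to -0.16 with a pseudocount of 2 (adjusted exact p = 0.699) and ranged from -0.09 to 0.30 without 1 library. Under E2 its call appeared with the sign-flip test of the replicate block (-0.55), and not with NR5A1 (-0.43) or LHB (-0.08) as denominator. For the difference of the effects the exact sign-flip call was lost with NR5A1 (-0.67, p = 0.125) or LHB (-0.69, p = 0.0938) as denominator and with a pseudocount of 2 (-0.42, p = 0.0938). Leaving out 1 library gave -0.70 to -0.53 there, where the exact test on 5 pairs cannot go below p = 0.0625. The cause of these changes was not tested.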
